A study of Mus musculus with 11 samples.

Results

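The samples described here are the 3 control libraries, of 11 in the study, made from Neuro-2A (N2A) cells treated with non-targeting siRNA pools (siNT A, siNT B and siNT C). They were chosen by their label as non-targeting controls, and no knockdown is compared with them. In the study, N2A cells received SMARTpools against Fubp1, Khsrp, both together or Rbm38 (2 libraries each) or non-targeting pools through Lipofectamine RNAiMAX, and RNA was taken 48 h after transfection. The series text calls the controls a biological triplicate. All cells are of 1 line, derived from a mouse neuroblastoma, a tumour of the sympathoadrenal lineage of the neural crest, and every group, controls included, was transfected with siRNA. Untransfected cells were not analysed here. Stranded libraries of polyadenylated RNA were size-selected for long inserts.

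Neuroblastoma cells resemble arrested precursors of sympathetic neurons and chromaffin cells. Their identity is held by a small circuit of transcription factors that includes HAND2 and GATA3, and mature cells of the lineage make noradrenaline through tyrosine hydroxylase and dopamine beta-hydroxylase. N2A cells are a common model in neuronal splicing because they include many microexons, exons of at most 27 nt that are mostly used in neurons. Inclusion of microexons is promoted by SRRM4 and SRRM3 and opposed by PTBP1 in most cell types outside the nervous system. The splicing measure is PSI (percent spliced in): of the reads informative for an event, the percentage that include the exon, keep the intron or use the given splice site. An event counts as measured with at least 10 informative reads in each of the 3 libraries, and as alternative with a PSI from 10 to 90.

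The sequences of microexons on which the splicing results turn are printed first, since their inclusion in these control cells ran from near 0 to near complete. Capitals mark the microexon and small letters the 15 nt of the neighbouring coding exons on each side. They were cut from GENCODE vM21 transcripts (mouse build GRCm38), each named with its place and strand, after matching by gene, exon length and both flanking intron lengths. Of 98 exons looked up, 77 matched at 1 place, and 73 of these were coding.
Src, chr2:157458843-157458860, + strand: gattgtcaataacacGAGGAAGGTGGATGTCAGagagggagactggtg
Kdm1a, chr4:136563438-136563449, - strand: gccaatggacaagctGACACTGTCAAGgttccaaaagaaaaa
Itsn1, chr16:91842628-91842642, + strand: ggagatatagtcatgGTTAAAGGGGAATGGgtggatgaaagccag
Apbb1, chr7:105565946-105565951, - strand: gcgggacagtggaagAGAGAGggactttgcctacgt
Agrn y site, chr4:156169546-156169557, - strand: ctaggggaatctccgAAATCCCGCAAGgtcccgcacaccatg
Agrn z site, chr4:156168546-156168569, - strand: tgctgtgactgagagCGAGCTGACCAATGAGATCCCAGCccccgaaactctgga
Mon2, chr10:123023086-123023088, - strand: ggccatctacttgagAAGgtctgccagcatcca
Psap, chr10:60297537-60297545, + strand: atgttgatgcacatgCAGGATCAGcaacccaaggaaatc
Eif4g1, chr16:20674786-20674806, + strand: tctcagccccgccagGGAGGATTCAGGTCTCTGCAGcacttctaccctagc
Eif4g3, chr4:138095909-138095929, + strand: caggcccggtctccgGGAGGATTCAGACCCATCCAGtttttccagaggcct
Ank2, chr3:127052226-127052249, - strand: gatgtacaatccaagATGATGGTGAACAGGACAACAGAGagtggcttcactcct
Ank3, chr10:69823078-69823101, + strand: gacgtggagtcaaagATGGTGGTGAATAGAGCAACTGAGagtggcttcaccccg
Dnm1, chr2:32323179-32323190, - strand: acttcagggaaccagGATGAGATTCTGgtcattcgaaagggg
Dnm2, chr9:21490658-21490669, + strand: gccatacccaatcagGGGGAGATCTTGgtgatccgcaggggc

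The libraries differed in depth and 1 of them stood apart. Over all measured events the median was 225 informative reads in siNT A, 298 in siNT B and 180 in siNT C. Exon-event RPM, the summed informative reads of a gene's exons scaled to 1000000 such reads in the library, served as a per-library measure of gene level, because the authors' RPKM, a read density scaled to transcript length and library size, is a single value for the control group. Of 9259 genes with at least 100 exon-event reads in every library, 40 differed 2-fold or more between siNT A and siNT B, 457 between siNT A and siNT C, and 410 between siNT B and siNT C. The titles number siNT A and siNT B as B01 and B03 and siNT C as B27, and what these numbers stand for is not given in the labels. A level given below as an RPKM therefore carries no error, and the exon-event RPM per library are added for some of the genes that have exon events. Exon-event RPM grow with the number of exons of a gene and are compared within a gene only.

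Splicing differed between the 3 libraries beyond counting error in a minority of events. Of 62605 events with a mean PSI from 1 to 99, 8143 (13.0%) differed between the libraries in a chi-square test of inclusion against exclusion reads at an adjusted p under 0.05, and 4.38% did so with a range of at least 10 points. By class the share called was 15.4% of microexons, 26.2% of longer exons, 6.06% of introns, 8.24% of alternative 3′ sites and 9.97% of alternative 5′ sites. Between pairs of libraries 4.14% were called for siNT A and B, 5.81% for siNT A and C and 6.99% for siNT B and C. With events chosen and tested anew on siNT A and siNT B, without siNT C, the count was 2740. The test takes reads as independent and so measures the spread between these 3 libraries beyond counting error, whose source was not tested. It uses corrected reads, some of which are not whole numbers, so its counting error is approximate. Depth differs among classes, and deeper events are called at smaller differences.

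The cells expressed the transcription factors of sympathetic neuroblasts. Of 18 listed sympathoadrenal factors, 15 had at least 1 RPKM and 12 at least 10 RPKM, whereas 23.7% of all 52661 genes in the table (12483) reached 1 RPKM. Hand2, needed for sympathetic neuron development, was highest at 227 RPKM. Phox2a, a homeodomain factor of autonomic neurons, had 64.0 RPKM, and 17.8, 11.1 and 3.86 exon-event RPM in siNT A, B and C. It was lowest in siNT C. All 9 listed factors deep enough to compare were below the mean of siNT A and siNT B in siNT C, at a median ratio of 0.579, against 0.978 over all 9259 genes. What sets siNT C apart was not tested. Gata2 had 61.7 RPKM, and 109, 104 and 57.8 exon-event RPM in siNT A, siNT B and siNT C, lowest in siNT C. Sox4 had 76.6 RPKM, Insm1, a zinc finger factor of neuroendocrine cells, 39.0 RPKM, and Isl1 17.3 RPKM. Gata3, a factor required for noradrenergic differentiation, had 7.95 RPKM, and 15.1, 11.7 and 6.79 exon-event RPM over the same libraries. Mycn, the oncogene amplified in many human neuroblastomas, had 13.1 RPKM, and 6.12, 5.69 and 3.82 exon-event RPM, so Gata3 and Mycn were lowest in siNT C as well.

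The enzymes and secretory proteins of noradrenergic cells were present at unequal levels. Of 15 listed genes 11 reached 1 RPKM. The granins of dense-core vesicles led the list, Chgb with 248 RPKM, Scg2 with 162 RPKM and Chga with 73.4 RPKM, and the exon-event RPM of Chga were 218, 232 and 233 in siNT A, B and C. Chgb had 198, 212 and 254 exon-event RPM and Scg2 88.4, 92.7 and 120.3 in the same order, both highest in siNT C. The vesicular monoamine transporter gene Slc18a2 had 61.4 RPKM, and 155, 147 and 124 exon-event RPM. Along the pathway to noradrenaline, Th, the rate-limiting tyrosine hydroxylase, had 2.63 RPKM, Ddc, the decarboxylase, 17.6 RPKM, Gch1, which makes the cofactor of tyrosine hydroxylase, 34.8 RPKM, and Dbh, dopamine beta-hydroxylase, 18.8 RPKM. Th had 7.54, 8.47 and 7.07 exon-event RPM in siNT A, siNT B and siNT C, and Dbh 65.9, 69.0 and 58.7, so neither level rested on 1 library. Ddc had 13.4, 12.8 and 19.2 exon-event RPM and Gch1 38.8, 36.9 and 51.4, both highest in siNT C. Slc6a2, the noradrenaline transporter, was listed at 0.02 RPKM, and Pnmt, which makes adrenaline, at 0 RPKM with no reads on any of its 5 events.

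Defining markers of other transmitter types were near 0 except for 1. At least 1 RPKM was reached by 3 of 7 cholinergic, 3 of 8 glutamatergic, 3 of 8 GABAergic and 2 of 7 dopaminergic and serotonergic genes. At a minimum of 5 RPKM the last 3 counts were 1, 0 and 1. Of the defining cholinergic genes Chat had 0.09 RPKM, Slc5a7 0.01 RPKM and Slc18a3 was listed at 0, although the nicotinic receptor genes Chrna3 and Chrna7 had 39.3 and 14.4 RPKM. The vesicular glutamate transporters Slc17a7 and Slc17a6 were at 0.05 and 0 RPKM and the GABA-making enzymes Gad1 and Gad2 at 0.01 and 0.05 RPKM. Tph2, the neuronal enzyme of serotonin synthesis, was an exception with 7.87 RPKM, and its exon-event RPM were 10.8, 12.4 and 19.8 in siNT A, B and C. The other defining gene of serotonergic cells, the transporter Slc6a4, was at 0.01 RPKM, and Fev, their transcription factor, at 0.13 RPKM.

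General neuronal genes were split into a large expressed group and a small silent one. Of 26 listed genes 20 had at least 10 RPKM. Uchl1, a neuronal ubiquitin hydrolase, had 437 RPKM, Tubb3, neuronal beta-tubulin, 386 RPKM, Prph, the peripheral neuron intermediate filament, 309.9 RPKM, and Stmn2, a regulator of growth cone microtubules, 237 RPKM. The exon-event RPM of Prph were 736, 660 and 769 in siNT A, B and C, a spread of 55.9 (SD, n = 3). Gap43, Snap25, Mapt and Syp had 203, 118, 71.3 and 44.8 RPKM. Among the genes under 1 RPKM were Dcx (0.11 RPKM), the neurofilament genes Nefm and Nefl (0.02 and 0.01 RPKM) and Rbfox3, which encodes the mature neuron antigen NeuN (0.01 RPKM). The third neurofilament gene, Nefh, had 25.3 RPKM.

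Of 16 progenitor genes 6, and of 12 receptor genes 9, reached 1 RPKM, and 5 receptor genes reached 5 RPKM. Vim, the filament protein of undifferentiated and mesenchymal cells, had 820.3 RPKM, and its exon-event RPM were 1219, 1219.8 and 1769 in siNT A, B and C, highest in siNT C. The let-7 blocking RNA-binding genes Lin28a and Lin28b, which mark embryonic and tumour cells, had 116 and 41.4 RPKM. Sox1, Sox2, Sox3, Hes1, Neurog1 and Neurog2 were all listed at 0, and Notch1 at 0.02 RPKM. The progenitor genes were not all silent: Pax6 and Nes, which with Sox2 define the list, each had at least 0.5 RPKM and under 10 RPKM. Ret, the receptor of the GDNF family ligands, had 187 RPKM, with 1424, 1515 and 1102 exon-event RPM in siNT A, B and C. The neurotrophin receptor genes Ngfr and Ntrk3 had 57.3 and 9.61 RPKM, Ntrk2 had 0.03 RPKM, and Alk, a receptor kinase mutated in some neuroblastomas, had 3.89 RPKM.

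Markers of other cell types the culture could hold were mostly under 1 RPKM. Of the 8 microglia and macrophage genes, 6 hepatocyte genes and 6 pluripotency genes none reached 1 RPKM, the highest being Cd68 at 0.71 RPKM, and of 7 endothelial genes only Pecam1 did (1.23 RPKM). At least 1 RPKM was seen for 2 of 7 astrocyte, 3 of 8 oligodendrocyte, 3 of 12 neural crest and Schwann cell, 2 of 10 fibroblast and 2 of 7 skeletal muscle genes. The defining glial genes Gfap, Aqp4, Mog, Olig2 and Sox10 were at 0.33, 0.01, 0, 0 and 0 RPKM. Fibroblast collagens Col1a1, Col1a2 and Col3a1 were at or under 0.02 RPKM, but Fn1, which encodes fibronectin, had 77.9 RPKM. Myh3, the embryonic skeletal muscle myosin, had 31.1 RPKM, with 318, 322 and 231 exon-event RPM in siNT A, B and C, while Myod1 and Myog were at 0 and 0.03 RPKM. In bulk RNA a few cells with much of a transcript and many cells with little cannot be told apart.

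**Figure D1:**
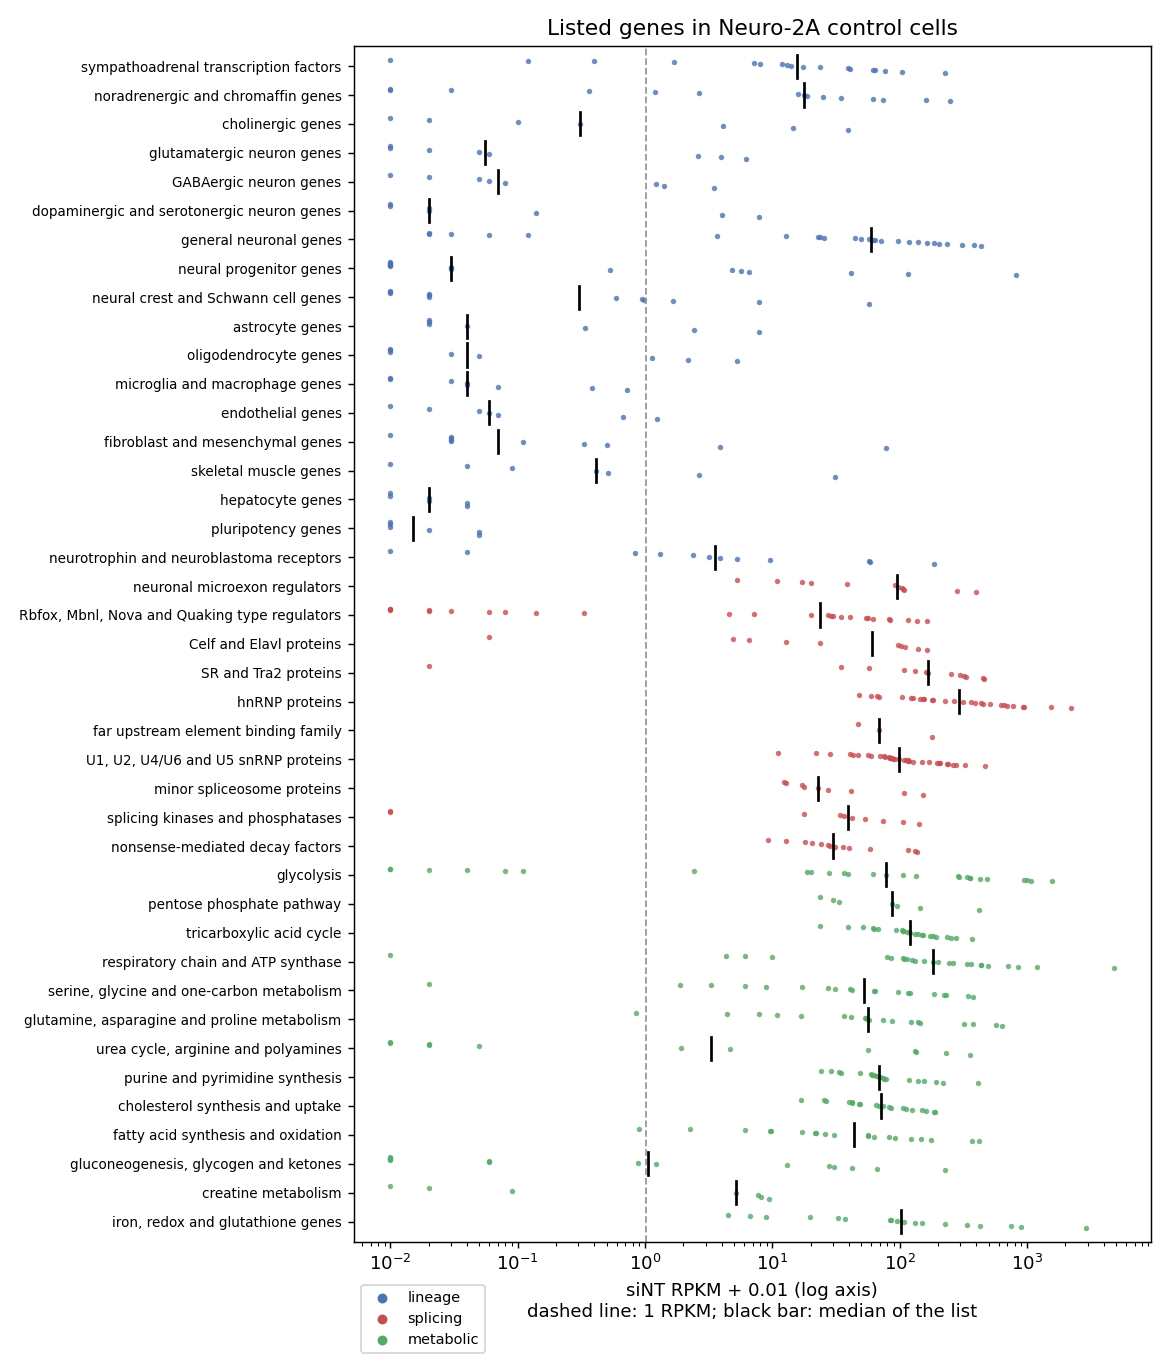
RPKM of each listed gene in the control group, plus 0.01 and on a log axis, with lists down the page. Points are genes, the black bar is the median of a list and the dashed line marks 1 RPKM. Medians of the core splicing lists lie between 22.9 RPKM (minor spliceosome) and 290.5 RPKM (hnRNP proteins), and those of hepatocyte and pluripotency genes at or under 0.01 RPKM.

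Genes of the splicing machinery were expressed throughout. All 28 listed hnRNP genes, all 35 genes of the U1, U2, U4/U6 and U5 particles, all 9 genes of the minor spliceosome and all 3 of the far upstream element binding family had at least 10 RPKM. The highest hnRNP genes, which encode abundant pre-mRNA packaging proteins, were Hnrnpa1 (2225 RPKM), Hnrnpa2b1 (1539 RPKM), Hnrnpa3 (949 RPKM) and Pcbp2 (933 RPKM). Several of these have many processed copies in the mouse genome that can share their reads, so their levels are uncertain. Of 13 SR and Tra2 genes, whose products bind exonic enhancers, 12 had at least 10 RPKM, led by Srsf5 (458 RPKM) and Srsf3 (452 RPKM). Srsf12 alone was at 0.01 RPKM. Fubp1, Fubp3 and Khsrp, the family that the study targets in other libraries, had 180.1, 68.5 and 47.0 RPKM, and Rbm38 had 34.5 RPKM. Fubp1 had 676, 726 and 592 exon-event RPM in siNT A, B and C.

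Among regulators of neuronal splicing, the repressor and the activators of microexons were both present. Ptbp1, the repressor of neuronal exons, had 396 RPKM, and 131, 129 and 114 exon-event RPM in siNT A, B and C. Its neuronal relative Ptbp2 had 104 RPKM. Srrm4 and Srrm3, the activators of microexons, had 10.96 and 17.2 RPKM, and Rest, which represses Srrm4 outside neurons, had 5.23 RPKM. Both activators were lowest in siNT C: Srrm4 had 42.9, 40.0 and 22.5 exon-event RPM in siNT A, siNT B and siNT C, and Srrm3 had 30.9, 19.8 and 9.10. Of 26 listed Rbfox, Mbnl, Nova and Quaking type regulators 16, and of 10 Celf and Elavl genes 9, reached 1 RPKM. Rbfox2, Mbnl1, Nova1 and Celf3 had 54.3, 83.3, 20.1 and 97.8 RPKM, and Rbfox1 and Nova2 had 4.54 and 7.20 RPKM. Esrp1, the epithelial splicing factor, Rbm24, a muscle factor, and Khdrbs3 were listed at 0 with no read on any event, and Celf2 was at 0.05 RPKM. All 14 listed factors of nonsense-mediated decay and 8 of 10 splicing kinases and phosphatases reached 1 RPKM. Among the kinases that act on splicing Srpk1 had 106.5 RPKM, Clk1 had 36.3 RPKM, and Srpk3 and Dyrk1a were listed at 0.

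Core metabolic pathways were expressed, in several cases through 1 member of a pair of isoenzymes. All 7 pentose phosphate, all 24 tricarboxylic acid cycle, all 20 purine and pyrimidine and all 20 cholesterol genes had at least 10 RPKM. In glycolysis 21 of 27 genes reached 1 RPKM. Ldha, the muscle-type lactate dehydrogenase subunit, had 1584 RPKM and Ldhb, the heart-type subunit, was listed at 0 with no reads on its 3 events. Eno1, Aldoa and Pkm had 1083, 991 and 950.4 RPKM, and Pklr, the liver form of pyruvate kinase, 0.01 RPKM. Ldha and Eno1 had at most 0.0926 and 4.38 exon-event RPM in any library despite these RPKM values, so their levels could not be followed by library. The lack of event reads on Ldhb therefore adds little to its RPKM of 0. Both have processed copies in the mouse genome that can share their reads, which leaves these RPKM values uncertain. Aldoa had 908, 1089.6 and 1104 exon-event RPM in siNT A, B and C.

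In the mitochondria Atp5b, a catalytic subunit of ATP synthase, had 4849.9 RPKM and Cox4i1 1188 RPKM, and 22 of 25 listed genes of the respiratory chain had at least 10 RPKM. The members under this level were Cox4i2, Cox7a1 and Cox8b, at 6.09, 4.28 and 0 RPKM, which are forms used in lung or muscle. Of the 17 genes of this list deep enough to compare by library 16 were higher in siNT C, with a median ratio of siNT C to the mean of the other libraries of 1.42. Cox4i1 had 571, 611 and 1278 exon-event RPM in siNT A, B and C. Here siNT C stood high and siNT A and siNT B lay close together.

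Of 20 genes each, 19 reached 1 RPKM in serine and one-carbon metabolism, in glutamine, asparagine and proline metabolism and in fatty acid metabolism, against 7 of 12 in the urea cycle and polyamine list and 7 of 14 in the list of gluconeogenesis, glycogen and ketones. All 18 genes of iron, redox and glutathione metabolism did. Asns, asparagine synthetase, had 573 RPKM, with 1618, 1773 and 1887 exon-event RPM in siNT A, B and C. Psat1, Phgdh and Shmt2 of serine and glycine synthesis had 347, 185 and 231 RPKM, and Odc1, which starts polyamine synthesis, 354 RPKM. Of the urea cycle Otc and Cps1 were at 0 and 0.01 RPKM and Ass1 at 4.62 RPKM. Scd2, the stearoyl-CoA desaturase of brain, had 418 RPKM and Scd1, the main form of liver, 0.88 RPKM. Fasn, fatty acid synthase, had 123.5 RPKM and was lowest in siNT C, with 2713, 2559 and 1782 exon-event RPM in siNT A, B and C. Of the genes of glucose output Pck1, G6pc and Fbp1 were at 0, 0 and 0.05 RPKM, while the mitochondrial Pck2 had 42.3 RPKM. Oxct1, which uses ketone bodies, had 225 RPKM. In the creatine list 4 of 7 genes reached 1 RPKM and none reached 10 RPKM, the highest being the transporter gene Slc6a8 at 9.34 RPKM. Gatm, which catalyses the committed step of creatine synthesis, was listed at 0.

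In all, 232034 events were measured: 938 microexons, 101006 longer exons, 97873 introns, 18344 alternative 3′ splice sites and 13873 alternative 5′ splice sites. Microexons were the class with the most intermediate inclusion. In siNT A, B and C, 22.7%, 21.7% and 22.1% of them had a PSI from 10 to 90, a mean of 22.2% ± 0.489 (SD, n = 3 libraries). For longer exons the shares were 4.59%, 4.36% and 4.58% (mean 4.51% ± 0.130, SD, n = 3). Introns were retained at 10 to 90% in 4.90%, 4.17% and 4.96% of cases (mean 4.68% ± 0.438, SD, n = 3). For alternative 3′ sites the mean was 11.3% ± 0.15 and for alternative 5′ sites 12.5% ± 0.128 (SD, n = 3 libraries each). The share in microexons was above that of longer exons in each library, by far more than the spread between libraries.

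**Figure D2:**
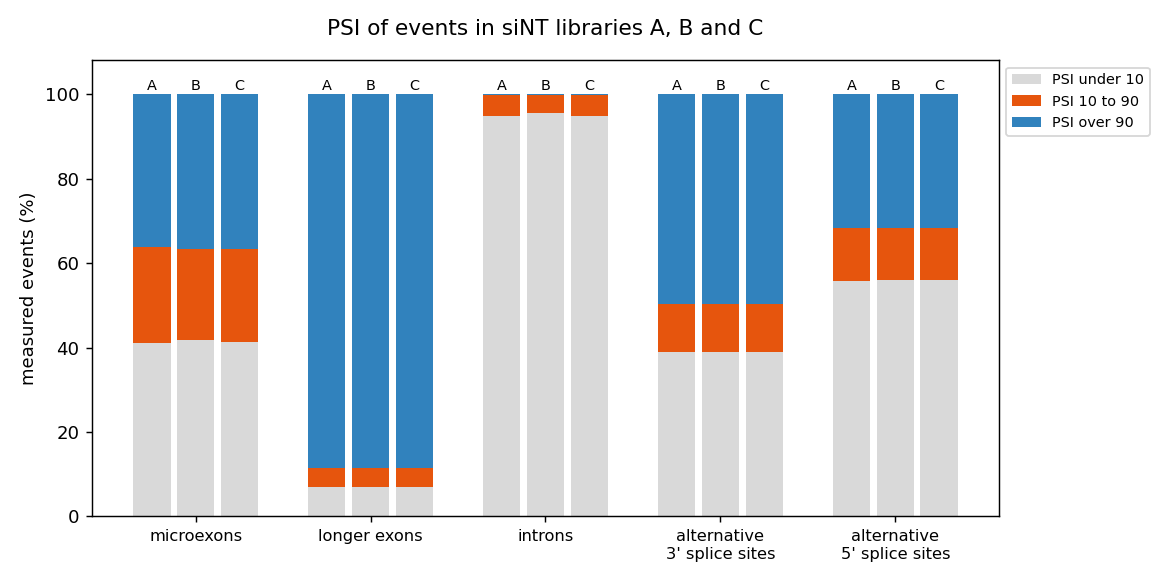
Share of measured events (percent, from 0) with a PSI under 10, from 10 to 90 and over 90, as stacked bars for siNT A, B and C within each event class. The bars of the 3 libraries are nearly alike in each class, and microexons have the widest middle band, 22.2% on average.

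Exon length separated exons by inclusion. Among the shortest exons, 3 to 15 nt (368 measured), 60.4% ± 0.830 (SD, n = 3) had a PSI under 10 and 18.6% ± 0.157 a PSI over 90. Among exons of 16 to 27 nt (570 measured) 29.1% ± 0.564 had a PSI under 10 and 48.0% ± 0.564 a PSI over 90. The median PSI was 2.51, 1.81 and 2.47 in siNT A, siNT B and siNT C for exons of 3 to 15 nt, and 85.0, 87.2 and 86.4 for those of 16 to 27 nt. The share of alternative exons was 21.01% ± 0.684 at 3 to 15 nt, 22.9% ± 0.564 at 16 to 27 nt, 8.90% ± 0.175 at 28 to 60 nt, 4.31% ± 0.116 at 61 to 150 nt, 3.60% ± 0.169 at over 150 to 300 nt and 5.23% ± 0.106 above 300 nt (SD, n = 3 libraries each). The share at 16 to 27 nt was above that at 3 to 15 nt in each library. Every step from 16 to 27 nt down to over 150 to 300 nt and the step up beyond 300 nt exceeded the spread between libraries, with no overlap of library values.

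Exons used at intermediate levels had lengths divisible by 3 more often. Of all exons with a PSI from 10 to 90, 47.3% ± 0.251 (SD, n = 3 libraries) had a length divisible by 3, against 41.2% ± 0.0789 of those under 10 and 38.6% ± 0.00267 of those over 90. The share depended on length. At 3 to 15 nt 70 of 80 alternative exons (87.5%) and 60 of 69 exons over 90 (87.0%) were divisible by 3. At 16 to 27 nt 112 of 134 alternative exons (83.6%) were, but only 133 of 274 exons over 90 (48.5%). At 28 to 60 nt the shares were 60.1% and 39.2%, at 61 to 150 nt 45.3% and 38.6%, and at over 150 to 300 nt 39.9% and 37.9%. The highly included exons of 16 to 27 nt thus held many lengths that shift the frame: of 31 measured exons of 22 nt 22 had a mean PSI over 90, and of 36 exons of 23 nt 26 did.

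**Figure D3:**
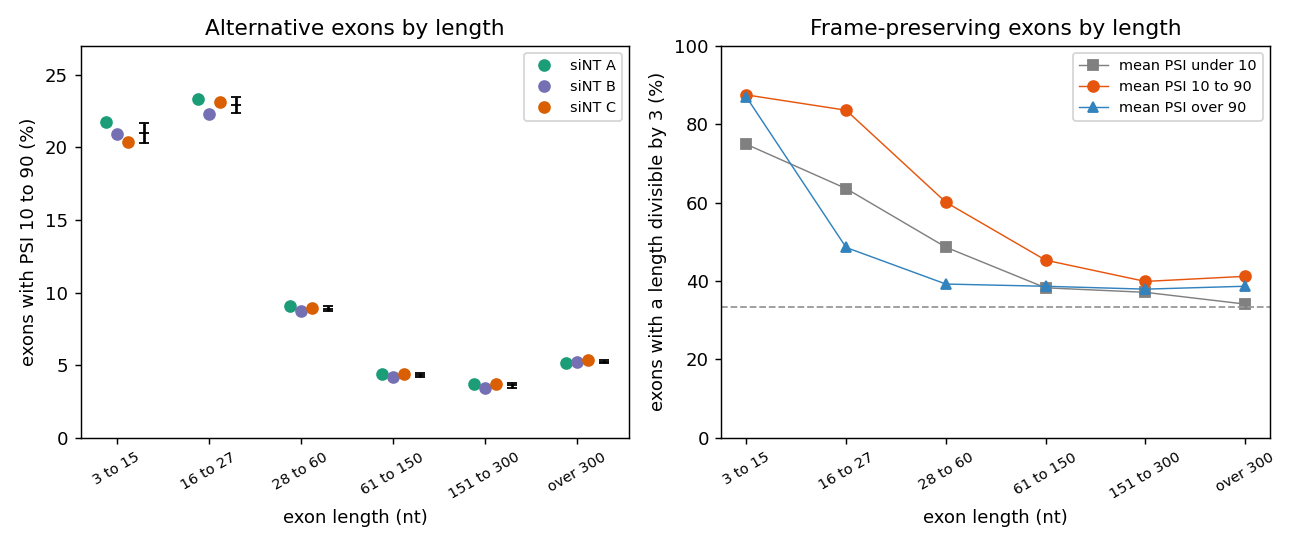
Left, exons with a PSI from 10 to 90 (percent of measured exons) by exon length, a point for each siNT library and a bar for the mean ± SD of 3 libraries. Right, exons with a length divisible by 3 (percent) by exon length for exons of mean PSI under 10, 10 to 90 and over 90, with a dashed line at 33.3%. The orange points run between 87.5% at 3 to 15 nt and 39.9% at over 150 to 300 nt.

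In genes encoding splicing factors and in a list of neuronal microexon hosts, 74 microexons of 44 genes were measured. Of these 30 had a mean PSI under 10, 24 from 10 to 90 and 20 over 90, where the count over all 938 microexons was 381, 214 and 343. Exons that are typical of mature neurons lay at both ends. The 12-nt exon of Kdm1a, which makes the neuronal form of this histone demethylase, had a PSI of 1.66, 1.23 and 1.49 in siNT A, B and C on 2140 to 2826 reads. The 15-nt exon of Itsn1, an endocytic scaffold, had 0, 0.96 and 0.62. By contrast the 6-nt exon of Apbb1, an amyloid precursor adaptor, had 96.4, 93.8 and 95.7. The 9-nt exon of Ap1s2, a clathrin adaptor subunit, had 96.3, 97.6 and 96.1. The 15-nt exon of Abi1, an actin regulator, had 95.68, 95.03 and 95.66. These 5 exons were chosen after their values had been seen, and each varied by less than 3 points among libraries.

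The 5 intermediate exons of 3 to 15 nt in these gene lists with the most reads in their least deep library came from Sptan1, Agrn, Mon2, Dnm2 and Nbea. The 15-nt exon of Sptan1, an axonal spectrin, had a PSI of 72.9, 71.7 and 70.6 in siNT A, siNT B and siNT C, and the 3-nt exon of Mon2, a Golgi trafficking protein, 46.5, 39.0 and 37.4. The 12-nt exon at the y site of agrin (Agrn), which adds a heparin-binding insert, had 37.3, 34.2 and 39.7. In the same gene the 24-nt exon at the z site, which gives agrin its activity at the neuromuscular junction, had 2.76, 2.97 and 4.91 (mean 3.55), and was chosen after its values were seen. The 9-nt exon of Nbea, a synaptic scaffold, had 83.5, 85.6 and 88.9, and the 12-nt exon of Dnm2, a membrane-cutting dynamin, 89.0, 89.5 and 89.4. Over all genes the most deeply read were exons of Psap (9 nt), the saposin precursor, with 44.9, 44.9 and 46.4 on 4344 to 14092 reads, Vps29 (12 nt) of the retromer with 50.3, 51.1 and 52.6, and Idh3g (12 nt) of the tricarboxylic acid cycle with 86.6, 86.7 and 84.8. Of these 9 exons the one of Mon2 alone differed between the libraries in a chi-square test of reads (adjusted p = 0.0368 for Mon2, Benjamini-Hochberg over all 62605 tested events). The 15-nt exon of Eea1, an endosomal tether, was shallower in siNT C (434, 645 and 179 reads) and fell outside the naming rule, and it had 52.0, 43.9 and 35.6 in siNT A, B and C (chi-square adjusted p = 0.00768).

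Of the exons of 16 to 27 nt, the 21-nt exon of Eif4g1, the scaffold of cap-dependent translation, had a PSI of 43.7, 37.2 and 36.5, the 24-nt exon of Bin1 79.6, 77.0 and 77.8, the 24-nt exon of Mef2a 17.5, 14.7 and 15.4, and the 24-nt exon of Cpeb4 38.4, 34.8 and 35.4 in siNT A, B and C. The Eif4g1 exon differed among libraries (chi-square adjusted p = 2.5e-04), and those of Bin1, Mef2a and Cpeb4 were not separated. The 18-nt exon of Pus7, a pseudouridine synthase, was highest in siNT C: its PSI was 13.5, 16.4 and 27.2 (chi-square adjusted p = 1.69e-07 across the libraries). The 24-nt exon of Picalm, a clathrin assembly protein, had 39.8, 36.8 and 36.3, and the 18-nt exon of Anxa6 70.95, 72.7 and 75.2. The 18-nt N1 exon of Src, which makes the neuronal form of the kinase and was chosen after its values were seen, had 31.8, 23.8 and 5.03 on 106, 122 and 31 reads. Its lowest value was in siNT C, the library with the fewest reads on it, and the chi-square test did not separate the libraries (adjusted p = 0.0650).

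Some related genes, but not all of the pairs looked at, differed in a microexon of the same length. The 21-nt exons of Eif4g1 and Eif4g3 share 16 of 21 bases, and their mean PSI was 39.1 and 2.43. The 24-nt exons of the ankyrin genes Ank2 and Ank3 share 19 of 24 bases, and their mean PSI was 98.4 and 0.727. The Ank2 exon had 99.45, 98.95 and 96.79 and the Ank3 exon 1.19, 0 and 0.99 in the same libraries, so no library came near overlap. The 12-nt exons of Dnm1 and Dnm2 share 8 of 12 bases and were both high, at 94.8 and 89.3. These pairs were chosen for their values and are given as a description.

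**Figure D4:**
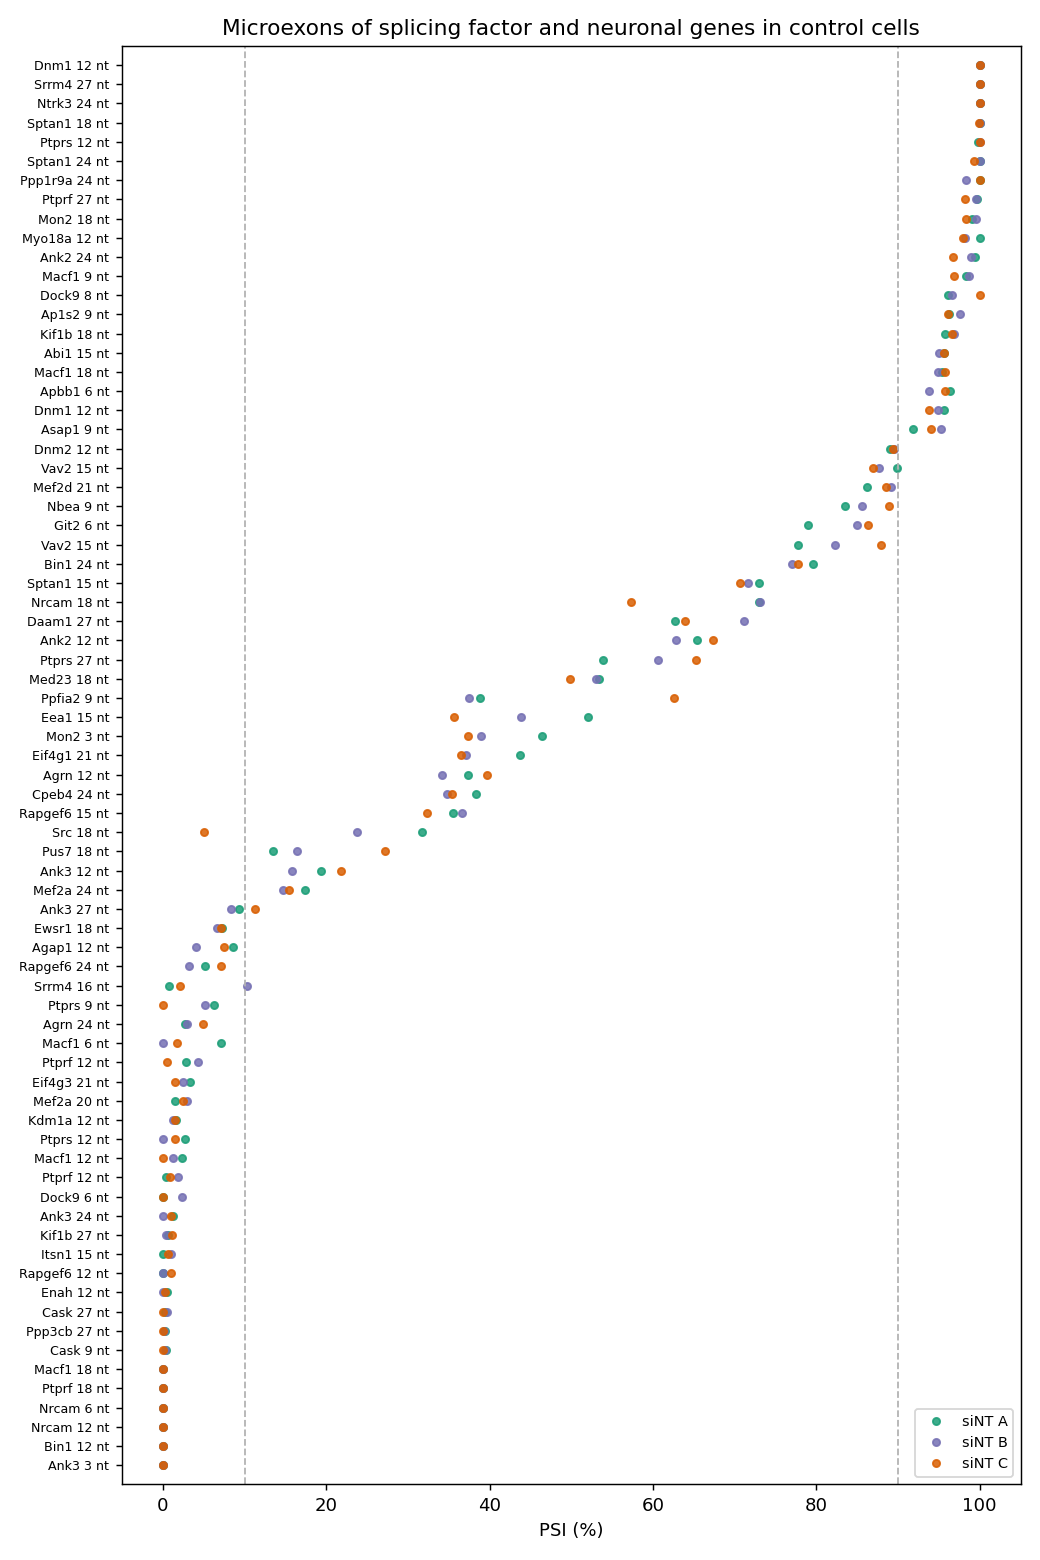
PSI (percent) in siNT A, B and C of the 74 measured microexons in genes of splicing factors and neuronal microexon hosts, ordered by mean PSI, with gene and exon length at left and dashed lines at a PSI of 10 and 90. Of the 74, 30 lie under 10 and 20 over 90, and libraries lie farthest apart for exons in the middle, such as Src and Ppfia2.

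In splicing factor genes 47 of 520 longer exons (9.04%) had a mean PSI from 10 to 90, against 4.36% of all longer exons. Hnrnpa2b1 used its 36-nt exon, which distinguishes its B1 form from the A2 form, at a PSI of 14.2, 13.2 and 12.4 in siNT A, B and C. Its 120-nt exon had 75.1, 77.8 and 85.4, highest in siNT C (chi-square adjusted p = 2.19e-153, on 15058 to 23913 reads). Hnrnpd, which encodes AUF1, used its 57-nt exon at 57.4, 56.6 and 52.6 and its 147-nt exon at 54.6, 53.8 and 57.3, the exons that give its protein forms. Kdm1a and Eif4h do not encode splicing factors. Their 60-nt exons had 50.3, 50.2 and 42.3 in Kdm1a and 44.0, 43.9 and 47.1 in Eif4h. Both exons differed among libraries (chi-square adjusted p = 4.82e-05 and 7.96e-04). Snrnp70, of the U1 particle, had 13.3, 12.9 and 12.7 at an 80-nt exon. Pkm is a gene of glycolysis, and its M1 and M2 forms differ by a pair of mutually exclusive exons. The 167-nt exon at chr9:59675029-59675195 (GRCm38) had 31.3, 29.8 and 29.8. The other exon of the pair is not reported here.

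Exons of Ptbp1, Ptbp2 and Mapt were chosen after their values were seen. The 34-nt exon of Ptbp1 had a PSI of 99.2, 98.9 and 98.0, and the 34-nt exon of Ptbp2, whose skipping leads to decay of the transcript, 87.1, 90.5 and 83.3 in siNT A, B and C (chi-square adjusted p = 4.81e-04). Mapt, which encodes tau, used its 66-nt exon at 65.0, 66.2 and 70.2, an 87-nt exon at 31.2, 29.7 and 38.7 and its 93-nt exon at 38.9, 45.5 and 41.6. The 711-nt exon of Mapt that makes the large tau of peripheral neurons had 8.33, 8.61 and 11.8. Of the 7 exons over 300 nt that the naming rule picked, 5 differed among libraries in the chi-square test, and those of Ank3 (2550 nt, adjusted p = 0.407) and Ptprs (600 nt, adjusted p = 0.390) were not separated. The 475-nt exon of Pkm had 49.6, 51.6 and 54.3 and the 370-nt exon of Elavl4 62.0, 71.4 and 48.9. The 497-nt exon of Hnrnpl had 90.9, 80.2 and 70.3, the 975-nt exon of Nasp, a histone chaperone, 52.3, 57.4 and 32.4, and the 2068-nt exon of Gnas, the stimulatory G protein gene, 65.8, 72.9 and 80.7. The exons of Hnrnpl, Nasp and Gnas had the smallest p (adjusted p = 4.58e-47, 1.79e-90 and 1.05e-45 by chi-square).

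A group of exons carried a fixed value. In 36 exons of 34 genes PSI lay within 0.5 points of 33.3 in every library, and the median range of these exons over the 3 libraries was 0.0150 points, where other exons with a mean PSI from 10 to 90 ranged over a median of 8.98 points. They include deeply read exons that the naming rule picked, the 132-nt exon of Hnrnpd (33.3 in each library), the 52-nt exon of Ppp1ca (33.16, 33.15 and 33.09) and the 159-nt exon of Rbbp4 (33.3 in each library). Why these exons have this value was not tested. They are counted among the alternative exons in the shares given here. Without them the shares of alternative exons moved by less than 1 SD of the libraries, and the count in splicing factor genes given above was 46 of 519 longer exons (8.86%), against 4.33% over all genes.

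Most introns were removed almost completely. Median retention was 0.61, 0.47 and 0.66% in siNT A, siNT B and siNT C for introns up to 200 nt, 0.33, 0.23 and 0.30% for over 200 to 1000 nt, and 0.07, 0.02 and 0% above 1000 nt. The share retained at 10% or more fell with length, 8.23% ± 0.840, 6.32% ± 0.526 and 3.33% ± 0.315 in the same order (SD, n = 3 libraries each). Within splicing factor genes 28 of 479 introns (5.85%) had a mean retention from 10 to 90, against 4.5% of all introns. A 117-nt intron of Hnrnpm was retained at 47.2, 44.9 and 54.7%, and a 1059-nt intron of Srsf2 at 14.1, 14.4 and 16.3%. A 1283-nt intron of Srsf6 had 4.41, 10.9 and 18.7%, which differed beyond counting error (chi-square adjusted p = 6.12e-35). Introns of Clk1, which keeps part of its RNA unspliced in the nucleus of mouse cells, had 29.12, 26.01 and 27.19% (871 nt) and 32.6, 13.8 and 19.7% (387 nt), chosen after their values were seen. Over all genes the most deeply read were introns of Rpl41 (58.8, 58.1 and 56.8%), the chaperone gene Hspa5 (17.8, 17.8 and 18.1%) and Prph (15.8, 13.8 and 15.8%).

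Alternative 3′ splice sites clustered at a distance of 3 nt. A site is described by its distance from the first-listed site of its group, which was left out. Of 2047 sites with a mean PSI from 10 to 90, 705 (34.4%) lay 3 nt away, against 7.74% of the 16297 other measured sites. A distance divisible by 3 was found for 62.3% of the former and 40.1% of the latter. Of 1738 5′ sites with a mean PSI from 10 to 90, 1.5% lay 3 nt and 5.35% lay 4 nt away. Among the 12135 other measured 5′ sites these shares were higher, at 1.94% and 8.13%. Sites 3 nt apart in splicing factor genes included those of Fubp1 with a PSI of 40.6, 38.3 and 41.7 in siNT A, siNT B and siNT C, and of Elavl2 with 30.9, 30.9 and 33.8. In Ptbp2 such a site, chosen after its values were seen, had 46.9, 53.5 and 49.9. The sites of Fubp1 and Elavl2 were not separated between libraries (chi-square adjusted p = 0.383 and 0.544).

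Among alternative 5′ sites, one 130 nt from the first in Srsf5 had a PSI of 22.1, 27.1 and 13.7, lowest in siNT C (chi-square adjusted p = 7.90e-56). A site of Srsf7, 24 nt away, had 54.3, 49.0 and 41.5 (adjusted p = 3.45e-08 by the same test), and a site 6 nt away in Tra2a had 49.8, 53.3 and 58.4 (adjusted p = 2.39e-07 by the same test). The 9-nt site of Hnrnph1 had 89.5, 88.3 and 88.3 and was not separated between libraries (chi-square adjusted p = 0.302). In splicing factor genes 22 of 134 alternative 3′ sites (16.4%) and 19 of 112 alternative 5′ sites (17.0%) were intermediate, against 11.2% and 12.5% over all genes. Only 3 microexons of splicing factor genes were measured, and 0 of these had a mean PSI from 10 to 90, against 22.8% over all genes.

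**Figure D5:**
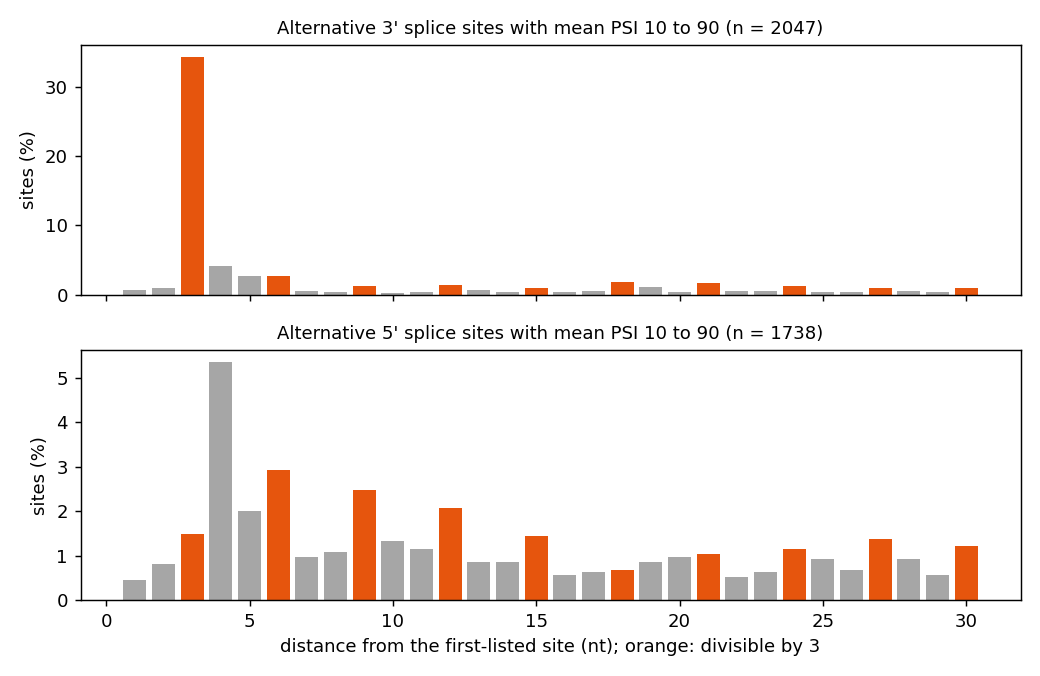
Distance (nt) of alternative 3′ sites (above) and 5′ sites (below) with a mean PSI from 10 to 90 from the first-listed site of their group, as percent of all such sites, for distances of 1 to 30 nt. Orange bars mark distances divisible by 3. The bar at 3 nt holds 34.4% of 3′ sites and 1.5% of 5′ sites.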

How the data were processed

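RNA of 3 control libraries of Neuro-2A cells was analysed, grouped by the sample labels. Per-library percent spliced in (PSI) and corrected inclusion and exclusion reads came from the vast-tools output that the authors deposited. Its version and genome build are not given in the sources used here. Its coordinates differ from GRCm38 for the matched exons and are not printed. The authors deposited 1 RPKM value per gene for the control group and a PSI score per group. How replicates were combined is not given. The submitters' processing notes name mm10, Salmon 0.14.1 and edgeR.

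Of 401633 entries, 37194 first-listed alternative splice sites were left out. Events needed 10 reads in every library. Deposited PSI and PSI recomputed from the reads differed by up to 0.25 points. The authors' group PSI and the mean of the libraries differed by a median of 0.226 points over 147374 events. Shares and medians were taken per library and given as mean ± SD. Inclusion reads were compared over libraries by a chi-square test with Benjamini-Hochberg adjustment (SciPy 1.17.1, pandas 2.3.3, NumPy 2.4.6), tested on simulated data. Without molecular identifiers in the reads, the test covers counting error alone, and only approximately, since the reads are corrected values. Gene names were taken from the files, with older symbols matched through RefSeq; 154 events whose symbol lies on another chromosome were left without a gene. Across 15212 genes RPKM and the median exon-event reads had a Spearman correlation of 0.944, across genes that are not independent replicates.

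Genes were named as the defining genes and the 4 highest of each list, and events as the 5 most deeply read intermediate ones per class in the host lists and the 3 most deeply read over all genes; others are said to be chosen after their values were seen or complete a list. The members, gene lists and rules were chosen with earlier results of these data known. Alternatives covered the read minimum, the PSI limits, the RPKM minimum, leaving out each library, and, added after seeing the data, leaving out exons at 33.3. No per-sample columns were left unmapped. Some genes that the rule names are not reported here.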

Additional observations from a re-analysis of the deposited data

How the results depend on the processing

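No paired analysis was possible because the results describe 1 group and come from no test between groups. Leaving out exons at 33.3 or using a likelihood ratio test (8863 events) moved no result beyond 1 SD or 1.5 times. With a read minimum of 20 or 50 the median PSI of microexons was 36.98 or 33.9, the alternative share of longer exons 4.28% or 3.92%, of introns 4.10% or 3.16%, of 3′ sites 10.4% or 9.08% and of 5′ sites 11.2% or 9.43%. By exon length the shares were 8.71% or 8.43% (28 to 60 nt), 4.07% or 3.70% (61 to 150 nt), 3.37% or 3.05% (over 150 to 300 nt) and 5.02% or 4.52% (over 300 nt). Lengths divisible by 3 made 48.4% or 50.2% of alternative exons, and median retention of introns over 1000 nt was 0.123% at a minimum of 50. With alternative set at a PSI of 5 to 95 the shares were 29.7% (microexons), 7.61% (longer exons), 9.38% (introns), 17.6% (3′ sites) and 19.0% (5′ sites), and 27.5%, 31.2%, 13.7%, 7.40%, 6.19% and 8.57% from the shortest to the longest exons. Among events of mean PSI 1 to 99 alone they were 43.9%, 23.4%, 15.4%, 28.7% and 30.99%, and 43.0%, 44.4%, 29.5%, 22.4%, 22.4% and 25.1% by length. The median PSI was then 45.1 for microexons, 39.98 at 3 to 15 nt and 46.6 at 16 to 27 nt, and median retention 3.17%, 3.06% and 2.52% from short to long introns. With all sites of a group kept the 3′ share was 11.04%. In genes at 10 RPKM or more the shares were 3.82% (longer exons), 3.60% (introns), 10.4% (3′ sites) and 11.2% (5′ sites), and 21.7%, 22.3%, 8.07%, 3.57%, 2.87% and 5.41% by length. Leaving out each library in turn gave 11.46% to 11.53% for 3′ sites, 12.7% to 13.0% for 5′ sites, 5.24% to 5.42% for exons over 300 nt, 47.1% to 47.3% for lengths divisible by 3, and 2740 to 4649 events that differ between the remaining libraries, where fewer libraries are compared. The order of exon length ranges by share held at each setting from 16 to 27 nt down to over 150 to 300 nt, except that ranges of 61 to 150 and over 150 to 300 nt were level among events of mean PSI 1 to 99. Counts of listed genes moved by over 1.5 times in small lists alone. At a minimum of 5 RPKM they were 1 (glutamatergic), 0 (GABAergic), 1 (dopaminergic and serotonergic), 1 (astrocyte), 1 (oligodendrocyte), 0 (endothelial), 1 (fibroblast), 1 (skeletal muscle) and 5 (receptors). At 0.5 RPKM they were 6 (neural crest), 1 (microglia) and 2 (endothelial).

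Depth limits single events, and all class shares except that of microexons moved with the read minimum as well. At the minimum of 10 reads a PSI of 0 or 100 allows wide limits, and siNT C had the fewest reads.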

Other observations

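Among the most highly listed genes of the control group, Mir6236 had 31006 RPKM, mt-Co3 10525 RPKM, Gm24245 10061 RPKM and Eef1a1 9866 RPKM, and 9 of the 20 highest were mitochondrially encoded. Mir6236 and Gm24245 are short annotated genes whose reads can come from other transcripts of the same sequence, so their levels are uncertain.

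On chromosome 16 Dyrk1a, a kinase gene, and its neighbour Vps26c (Dscr3 in the table) were both listed at 0 RPKM with 0 reads on their 7 exon events each in all 3 libraries. Their neighbours on the same side, Ttc3 and Pigp, had 61.7 and 57.5 RPKM, and Ets2 and Psmg1 on the other side had 21.2 and 52.0 RPKM, with exon-event reads in every library. Ripply3, Kcnj6, Kcnj15 and Erg had 1.10, 0.22, 0.01 and 0.88 RPKM. These genes were looked at after the value of Dyrk1a was seen.

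By list, siNT C departed from the mean of siNT A and siNT B in both directions. The median ratio was 1.59 over 8 minor spliceosome genes, 1.42 over 17 respiratory chain genes and 1.19 over 23 tricarboxylic acid cycle genes, and it was 0.579 over 9 sympathoadrenal factors (all 9 lower), 0.726 over 14 Rbfox, Mbnl, Nova and Quaking type regulators (11 lower), 0.743 over 12 regulators of neuronal microexons, 0.760 over 9 Celf and Elavl genes (all 9 lower) and 0.776 over 20 general neuronal genes. Over all 9259 genes the median ratio was 0.978, with 4894 lower in siNT C.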
